A study of Mus musculus with 23 samples.

Results

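A group of 10 genes of serine, cysteine and amino acid stress metabolism was followed across 23 Affymetrix arrays of mouse fibroblasts, CD8+ T cells and lymphomas. They are Phgdh, Psat1, Shmt2, Cth, Cdo1, Slc7a11, Asns, Atf4, Ddit3 and Trib3, among 12393 genes with a measurement. Each was read through the probe sets that the platform annotation assigns to that gene alone, 21 in all, and the one with the highest mean log2 intensity over all arrays stood for the gene. That choice used the mean level and no group. The study asked which gene programs depend on Ezh2 and on Snf5, and which are altered in lymphomas that lack Snf5. Ezh2 methylates histone H3 as part of the Polycomb complex PRC2, which silences genes. Snf5 is a subunit of the SWI/SNF complex, which opens chromatin, and its gene is named Smarcb1.

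Fibroblasts (MEFs) came from embryos at E13.5. Ezh2-deficient MEFs were set against wild-type MEFs, and Snf5 Ezh2-deficient MEFs against wild-type MEFs of their own set, with 3 arrays per group. Both genes were inactivated conditionally, per the series' design text, and the sources used here do not name the recombinase or the promoter that drove it. Lymphomas that had lost Snf5 gave purified CD8+ T cells (5 arrays), set against purified CD8+ T cells of wild-type mice (6 arrays), all from mice 10 to 15 weeks old. MEFs that lack Snf5 alone were not analysed here. The 3 wild-type arrays of the Snf5 Ezh2 set matched those of the Ezh2 set so closely, number by number, that they were taken as the same hybridisations summarised again, so both MEF comparisons share their 3 controls and rest on 9 distinct arrays. The titles call the samples biological replicates without saying whether each came from its own culture or animal, so p-values measure the spread between these samples, which may be technical. The sexes were mixed in some groups. The female transcript Xist read 9.56 and 9.52 on Ezh2-deficient arrays 2 and 3, against 6.19 to 6.37 on the wild-type arrays of that set, and the Y-linked Eif2s3y read 3.65 and 4.00 there, against 8.11 to 8.25. Array 1 of that group and all Snf5 Ezh2-deficient arrays had Xist at 6.27 to 6.45, close to the controls. Xist was high on lymphoma arrays 1 and 5 and low on arrays 2, 3 and 4, and it read 12.85 to 13.51 on all CD8+ arrays, of which arrays 3 and 4 also had Eif2s3y at 9.84 and 6.11. The part of sex in the results was not tested.

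Serine is made from a glycolytic intermediate by PHGDH, PSAT1 and a phosphatase. SHMT2 splits it in mitochondria into glycine and a one-carbon unit for nucleotide synthesis. Serine also joins homocysteine on the route to cysteine, which CTH releases, the transporter subunit encoded by Slc7a11 brings in as cystine, and CDO1 destroys by oxidation. When amino acids run short or the endoplasmic reticulum is under stress, kinases that phosphorylate eIF2alpha slow general translation while the Atf4 message is translated more. ATF4 then activates genes of amino acid synthesis and uptake, among them Asns, Psat1 and Slc7a11, and the stress regulators Ddit3 and Trib3. Arrays measure mRNA and do not show the translation of Atf4.

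The arrays were first checked against their labels. Ezh2 read log2 5.63 to 5.81 in Ezh2-deficient MEFs, against 7.81 to 7.95 in their controls. It read 6.10 to 6.65 in Snf5 Ezh2-deficient MEFs, against 8.02 to 8.07 in theirs. Smarcb1 read 6.56 to 6.83 in Snf5 Ezh2-deficient MEFs against 9.08 to 9.25 in wild-type MEFs, and 5.64 to 8.67 in the lymphomas against 10.38 to 11.48 in CD8+ T cells. No group overlapped its control in the gene named as lost, although the position of these probes within each gene was not checked against the deleted part. The fibroblast gene Col1a1 read 13.10 to 13.80 on all MEF arrays. Cd8a read 13.12 to 13.55 in the lymphomas and 10.59 to 13.64 in CD8+ T cells.

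Among the 6 wild-type CD8+ arrays, 4 stood apart in ways that touch the results. CD8+ arrays 1 and 6 carried B cell and myeloid markers. The mean of 10 measured myeloid markers was 12.29 and 12.26 there, against 6.58 to 8.07 on the other 4, and the mean of 7 measured B cell markers was 11.03 and 11.06 against 7.40 to 8.58. Cd8a was lowest on the same arrays, at 10.73 and 10.59. The lymphomas held intermediate myeloid means, 8.17 to 10.53, and low B cell means, 6.08 to 7.12. CD8+ arrays 3 and 4 had proliferation means (9 genes) of 9.09 and 9.27, whereas the lymphomas had 12 to 12.41 and the other CD8+ arrays 11.04 to 12.18. These are bulk samples, in which fewer cells of a type and less RNA per cell cannot be told apart. Results from the T cell arrays are therefore also given without arrays 1 and 6 and without arrays 3 and 4, choices made after the data were seen.

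Taken gene by gene at an adjusted p of 0.05 over all probe sets, the list had a different outcome in each comparison. In Ezh2-deficient MEFs 0 of the 10 genes passed limma's moderated test, and 1, Psat1, had an unadjusted p under 0.05. Of all genes 3.49% passed there (1.02% higher, 2.47% lower), and 25.3% had an unadjusted p under 0.05. In Snf5 Ezh2-deficient MEFs Cdo1 rose and Phgdh fell, 2 of 10, where 27.5% of all genes passed (13.2% higher, 14.3% lower). In the lymphomas Cth, Psat1 and Phgdh rose and Cdo1 and Ddit3 fell, 5 of 10, where 16.8% of all genes passed (9.13% higher, 7.71% lower). Without CD8+ arrays 1 and 6 the count was 6, with Asns added, and 26.4% of all genes passed. Without arrays 3 and 4 it was 4 (Phgdh, Psat1, Asns and Ddit3), and 14.9% of all genes passed. The median log2 change of the 10 genes was -0.15, -0.08 and 0.60 in these comparisons, against 0.004, -0.003 and -0.066 over all genes. The list was assembled with earlier results of these data known, so its counts are a description of the chosen genes.

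**Figure D1:**
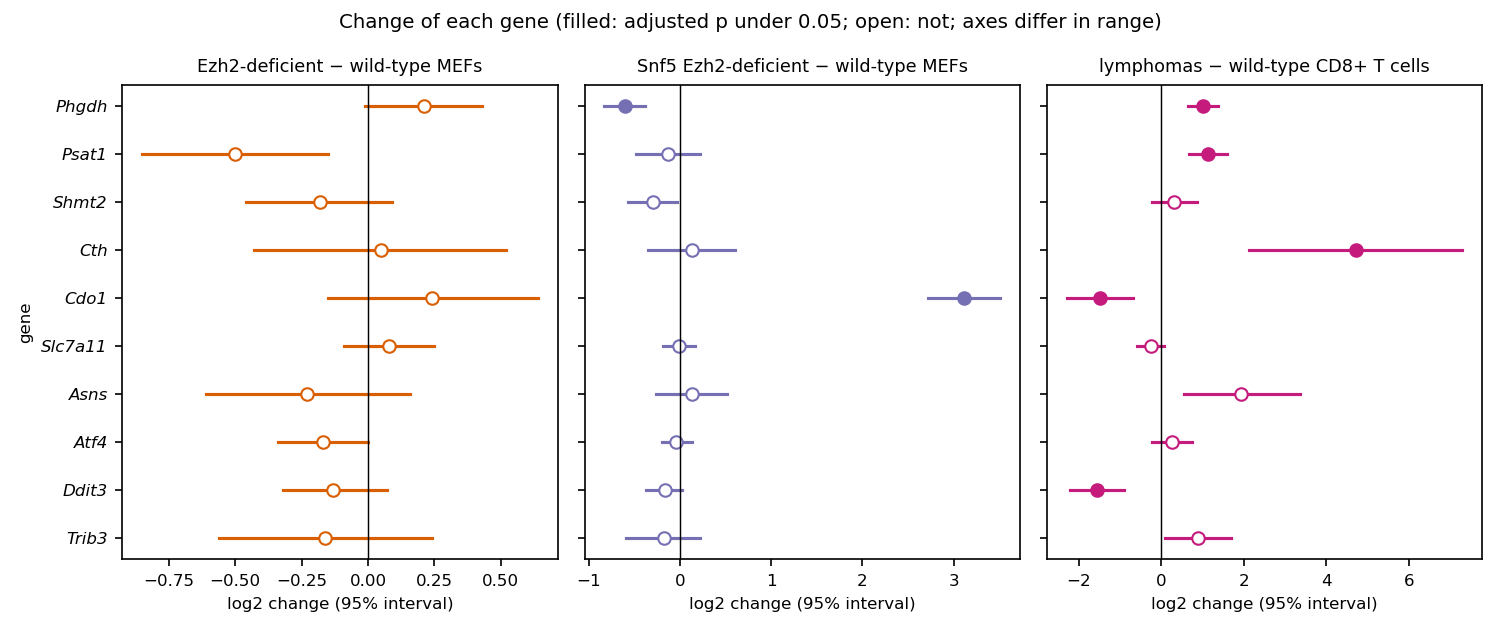
Log2 change of each gene (x axis, with 95% interval) in Ezh2-deficient minus wild-type MEFs, Snf5 Ezh2-deficient minus wild-type MEFs and lymphomas minus wild-type CD8+ T cells. Filled points passed an adjusted p of 0.05 and open points did not; 0, 2 and 5 of the 10 genes are filled, and the x axes differ in range.

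Because ATF4 works with C/EBP proteins through a composite DNA element, the promoters of the genes were searched for its core, TGATGNAA, on both strands. RefSeq windows from 250 bases before to 50 bases after the transcript start (GRCm38.p6) were used for 8 of the 10 genes, all except Cth and Cdo1. The core was present in 3 of the 8, Asns, Slc7a11 and Trib3, and in 3.97% of 32851 windows of that length in the table. The stretches from 120 bases before to 30 bases after each start are shown because these 3 carry the core searched for; capitals mark the core on either strand, and all 3 genes lie on the minus strand, at chr6:7693180-7693329, chr3:50443584-50443733 and chr2:152344031-152344180.
Asns: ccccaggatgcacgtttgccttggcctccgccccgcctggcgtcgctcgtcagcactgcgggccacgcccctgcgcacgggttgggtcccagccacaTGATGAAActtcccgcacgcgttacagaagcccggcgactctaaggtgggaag
Slc7a11: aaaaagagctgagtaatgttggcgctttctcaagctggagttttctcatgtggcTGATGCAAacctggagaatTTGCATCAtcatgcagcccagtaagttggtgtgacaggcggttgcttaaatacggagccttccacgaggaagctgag
Trib3: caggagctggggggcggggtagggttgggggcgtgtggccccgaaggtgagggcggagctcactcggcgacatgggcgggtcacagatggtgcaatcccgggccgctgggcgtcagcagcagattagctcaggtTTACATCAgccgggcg
In Asns the core begins 23 bases before the start. Slc7a11 holds 2 copies that face each other, 66 and 47 bases before the start, and Trib3 holds 1 on the opposite strand from base 15 after it. A core of the antioxidant response element, TGACNNNGC, was found in Phgdh and Asns and in 12.4% of all windows. The cyclic AMP response element, TGACGTCA, was in none of the 8 and in 1.79% of all windows. A match describes the letters and no binding, and its absence says only that these letters are not in this window. The 3 genes with the ATF4 element gave different readings in the lymphomas, with changes of 1.94 for Asns, 0.88 for Trib3 and -0.26 for Slc7a11 at the floor, and none of these passed on the main probe set.

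The first enzyme of serine synthesis, Phgdh, moved in opposite directions in the fibroblasts without both regulators and in the lymphomas. Its values were 9.94, 10.06 and 10.17 in Snf5 Ezh2-deficient MEFs, against 10.56, 10.77 and 10.65 in wild-type MEFs. All 3 mutant arrays lay below all 3 controls, and Phgdh fell 1.52-fold (log2 change -0.60, SE 0.1, adjusted p = 0.00148). In Ezh2-deficient MEFs it read 10.75, 11.11 and 10.88 against 10.58, 10.81 and 10.71, groups that overlapped (0.21, adjusted p = 0.237). The other 3 probe sets were also higher there and did not pass (2.68, 0.15 and 0.21, adjusted p = 0.196, 0.362 and 0.241). On the first and the last of these the groups did not overlap. The first read 11.40, 11.58 and 11.48 against 10.50, 10.77 and 5.13. Set against each other, the effect in Snf5 Ezh2-deficient MEFs was lower than that in Ezh2-deficient MEFs by 0.81 on the log2 scale (difference -0.81, SE 0.1, adjusted p = 0.000259). On the other 3 probe sets this difference was -0.84, -0.53 and -0.58, and the last 2 passed (adjusted p = 0.628, 0.00214 and 0.00195). With the mean over the 4 Phgdh probe sets it was -0.69 and did not pass (adjusted p = 0.116).

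Besides the main one, 3 further probe sets report Phgdh, and 1 of them departs. Of these, 2 fell by 0.38 and fell by 0.37 in Snf5 Ezh2-deficient MEFs (adjusted p = 0.0117 and 0.0194), the first of them the brightest Phgdh probe set on MEF arrays. On the other one, wild-type array 3 read 4.97, while arrays 1 and 2 read 10.42 and 10.70 and the mutant arrays read 10.49, 10.57 and 10.59. Its change of 1.85 did not pass (adjusted p = 0.294). With the mean of the 4 probe sets in place of the main one, Phgdh gave 0.12 in Snf5 Ezh2-deficient MEFs, with adjusted p = 0.817. All 4 Phgdh probe sets, and the main ones of Shmt2 and Trib3, are designs that the manufacturer marks as able to bind related transcripts.

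On the T cell arrays Phgdh was high in every lymphoma. It read 12.87, 13.14, 12.76, 13.27 and 13.05 in the lymphomas, against a lowest of 11.68, a median of 11.98 and a highest of 12.52 in CD8+ T cells, with no overlap. The rise was 2.02-fold (1.01, SE 0.167, adjusted p = 0.00266), and all 4 probe sets rose, by 1.01 to 1.36. CD8+ array 6 was the highest control and array 1 the next. The part of proliferation and of other cells in the Phgdh values was not tested. Without CD8+ arrays 1 and 6 the change was 1.16, and without arrays 3 and 4 it was 0.92 (adjusted p = 0.000636 and 0.014).

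Psat1, which encodes the transaminase of the next step, also rose in the lymphomas. The lymphomas were nearly uniform at 13.45, 13.40, 13.48, 13.47 and 13.45, whereas CD8+ T cells spread over 13.09, 12.32, 11.98, 12.15, 11.81 and 12.58. The groups did not overlap, and the rise was 2.19-fold (1.13, SE 0.210, adjusted p = 0.0052). CD8+ arrays 1 and 6 were the highest controls. The part of proliferation and of other cells in the Psat1 values was not tested. The SD was 0.032 in the lymphomas and 0.465 in CD8+ T cells. Those lymphoma values lie between the 98.1st and 98.4th percentile of their arrays. The other Psat1 probe set rose by 0.93 (adjusted p = 0.0207). The change was 1.39 without CD8+ arrays 1 and 6 and 1.00 without arrays 3 and 4 (adjusted p = 0.000134 and 0.025).

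In fibroblasts Psat1 gave no change that passed. It read 10.33, 10.59 and 9.89 in Ezh2-deficient MEFs, against 10.55, 10.93 and 10.82 in wild-type MEFs. The difference, -0.50 (SE 0.158), had an adjusted p of 0.104. It passed when Ezh2-deficient array 2 was left out (-0.66, adjusted p = 0.0426). The Snf5 Ezh2-deficient values of 10.59, 10.48 and 10.69 overlapped the controls at 10.49, 10.88 and 10.77 (-0.13, adjusted p = 0.620).

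Shmt2, the mitochondrial enzyme that passes the carbon of serine to folate, did not pass in any comparison on its main probe set. It averaged 9.04 ± 0.241 in Ezh2-deficient MEFs and 9.23 ± 0.151 in wild-type MEFs, a difference of -0.18 (adjusted p = 0.387). It averaged 8.82 ± 0.123 in Snf5 Ezh2-deficient MEFs and 9.12 ± 0.158 in wild-type MEFs (SD, n = 3 each). The change was -0.30, with an adjusted p of 0.105. The second of its 4 probe sets fell by 0.35 there (adjusted p = 0.0485). In the lymphomas Shmt2 ranged from 11.25 to 11.78 with a median of 11.58, against 10.48 to 11.88 with a median of 11.37 in CD8+ T cells, and the groups overlapped (0.31, adjusted p = 0.409). There too the second probe set passed, with a rise of 0.79 (adjusted p = 0.0242), and the other 2 did not (0.37 and 0.20).

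**Figure D2:**
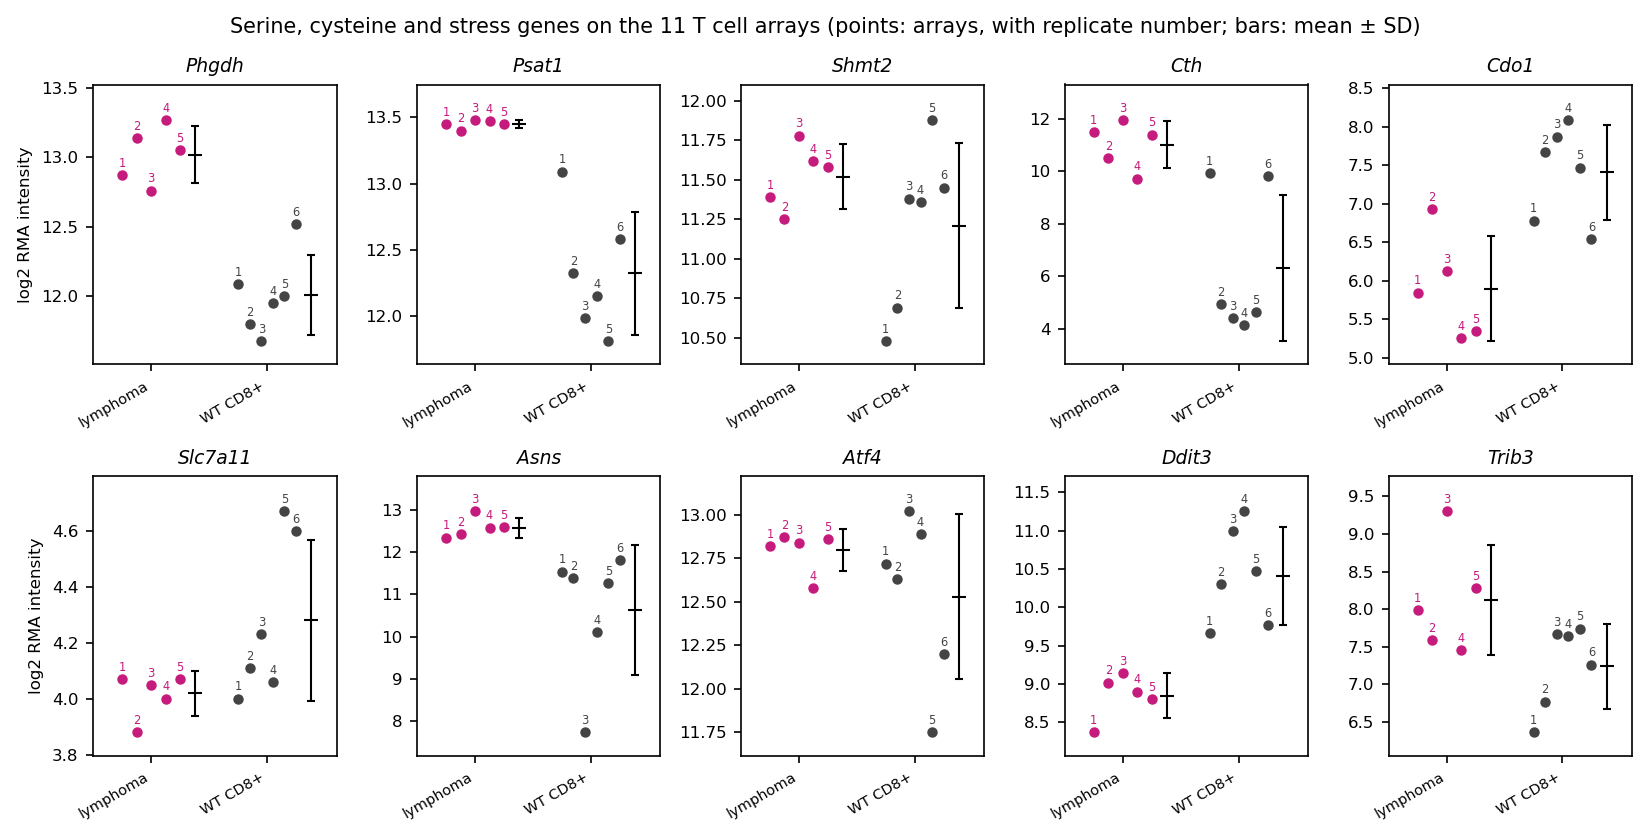
Log2 RMA intensity (y axis) of each gene on the 5 lymphoma arrays and the 6 wild-type CD8+ arrays; points are arrays with their replicate number and bars are mean ± SD. CD8+ arrays 1 and 6 carry Cth at 9.92 and 9.81, while the other 4 lie between 4.13 and 4.94.

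Among the cysteine genes, Cth had the largest difference of the list. This enzyme, cystathionine gamma-lyase, releases cysteine from cystathionine. The lymphomas read 11.50, 10.51, 11.96, 9.72 and 11.40. CD8+ T cells read 9.92, 4.94, 4.41, 4.13, 4.64 and 9.81. On the 4 low CD8+ arrays Cth was among the lowest 25% of probe sets, and arrays 1 and 6, at the 66.2nd and 64.8th percentile, overlapped the lymphomas.

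The change in Cth was 4.71 on the log2 scale (SE 1.17, 95% interval 2.13 to 7.29, adjusted p = 0.021), a 26.2-fold rise in which 4 of the 6 CD8+ values lie near the floor of the scale. It varied with the arrays included. Without CD8+ arrays 1 and 6, which carry the B cell and myeloid markers, it was 6.49 (adjusted p = 1.89e-05) and the groups no longer overlapped. Without CD8+ arrays 3 and 4 it was 3.69 and did not pass (adjusted p = 0.0736), and without lymphoma array 3 or 5 it also missed the threshold (4.48 and 4.62, adjusted p = 0.0531 and 0.0504). On lymphoma arrays 1 to 5 the myeloid means were 10.53, 8.17, 9.84, 9.54 and 10.44. Cth read 11.50, 10.51, 11.96, 9.72 and 11.40 on the same arrays. The part of other cells in the Cth values was not tested. In fibroblasts Cth read 7.68, 8.00 and 6.91 in Ezh2-deficient MEFs against 7.41, 7.62 and 7.42 in wild-type MEFs. It read 7.59, 7.45 and 7.52 in Snf5 Ezh2-deficient MEFs against 7.34, 7.49 and 7.36. Neither difference passed (0.05 and 0.13, adjusted p = 0.914 and 0.730).

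Cdo1, the dioxygenase that commits cysteine to sulfinate and taurine, rose in Snf5 Ezh2-deficient MEFs and fell in the lymphomas. Its values were 11.77, 11.76 and 11.84 in Snf5 Ezh2-deficient MEFs, against 8.66, 8.73 and 8.64 in wild-type MEFs. The mutant arrays lay within 0.08 of each other and far above every control, and the rise was 8.65-fold (3.11, SE 0.178, adjusted p = 3e-06). Cdo1 then stood between the 97.1st and 97.3rd percentile of its arrays, against the 70.2nd to 71.6th percentile in wild-type MEFs. The change stayed between 3.09 and 3.16 under all 13 alternative settings of this comparison.

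Ezh2-deficient MEFs showed no such rise. Cdo1 read 9.18, 9.33 and 8.46 in Ezh2-deficient MEFs, against 8.69, 8.85 and 8.71 in wild-type MEFs. Mutant arrays 1 and 2 lay above all controls and array 3 lay below them, and the change of 0.24 (SE 0.178, 95% interval -0.15 to 0.64) had an adjusted p of 0.435. Without Ezh2-deficient array 3 it was 0.51 and passed (adjusted p = 0.0144). The difference between both effects was 2.87 (SE 0.178, adjusted p = 6.19e-06), and 29.9% of all genes passed in that comparison (16.3% higher, 13.6% lower). Only Cdo1 (higher) and Phgdh (lower) passed there among the 10 genes. In the same difference 9 of 9 proliferation markers were higher (median 0.75), and their part in it was not tested. Without MEFs that lack Snf5 alone, an effect of Snf5 by itself cannot be told apart from one that needs both losses.

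Cdo1 is best known from liver and fat, so markers of both were set beside it. In Snf5 Ezh2-deficient MEFs 0 of 5 measured hepatocyte markers passed. Their mean ran from 5.79 to 5.99, against 5.99 to 6.04 in wild-type MEFs. Of 5 measured adipocyte markers 2 fell, Fabp4 by 1.44 and Lpl by 0.73, and their mean ran from 5.43 to 5.66 against 5.96 to 6.05. Of 10 fibroblast markers Pdgfra rose by 1.76 and Fn1 fell by 0.21. Of 5 endothelial markers Tek rose by 1.46 (adjusted p = 1.7e-06), and their mean ran from 5.63 to 5.86 in Snf5 Ezh2-deficient MEFs against 5.42 to 5.45 in wild-type MEFs, without overlap. Proliferation markers averaged 8.82 to 9.10 in Snf5 Ezh2-deficient MEFs against 8.70 to 9.05 in wild-type MEFs, and 1 of 9 rose. The part of other cells in the Cdo1 values was not tested.

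**Figure D3:**
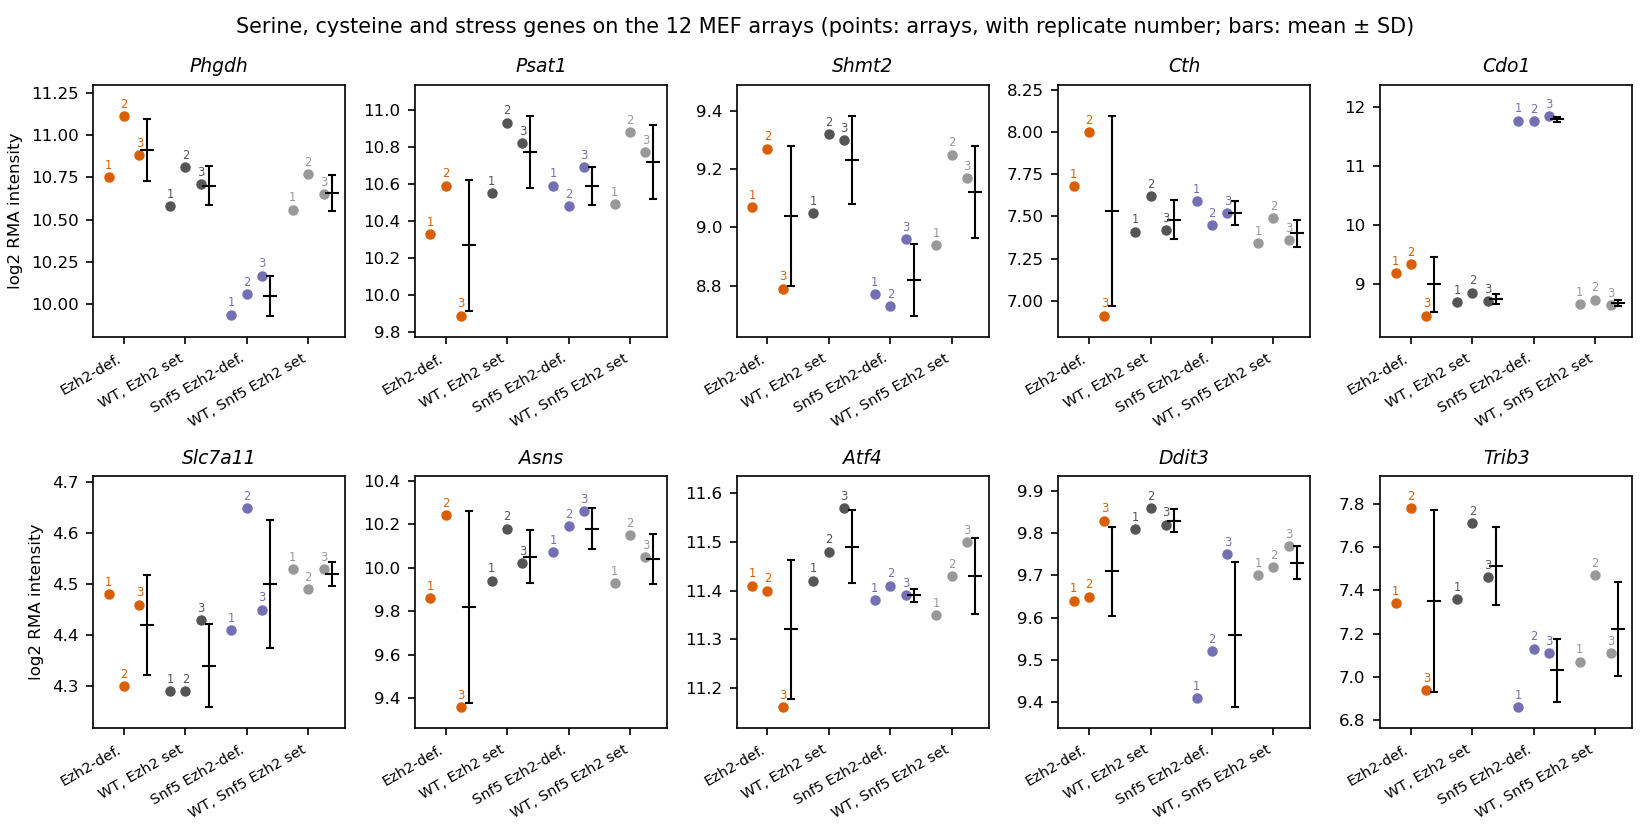
Log2 RMA intensity (y axis) of each gene on the 12 MEF arrays, with Ezh2-deficient and Snf5 Ezh2-deficient MEFs each left of the wild-type arrays of their own set; points are arrays with their replicate number and bars are mean ± SD (n = 3). Cdo1 lies at 11.76 to 11.84 in Snf5 Ezh2-deficient MEFs and at or below 9.33 elsewhere; both wild-type groups show the same 3 hybridisations.

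In the lymphomas Cdo1 read 5.85, 6.93, 6.13, 5.26 and 5.35, against 6.78, 7.67, 7.87, 8.09, 7.47 and 6.54 in CD8+ T cells. Lymphoma array 2 overlapped CD8+ arrays 1 and 6, the lowest controls, and CD8+ arrays 3 and 4 were the highest. The part of proliferation and of other cells in these Cdo1 values was not tested. The fall was 2.83-fold (-1.50, SE 0.363, adjusted p = 0.0184). It was larger, -1.87, without CD8+ arrays 1 and 6 (adjusted p = 0.00369) and smaller, -1.21, without arrays 3 and 4, where it did not pass (adjusted p = 0.0672). Leaving out lymphoma array 4 or 5 also ended the call (adjusted p = 0.051 and 0.0506). From high to low, Cdo1 averaged 11.79 ± 0.043 in Snf5 Ezh2-deficient MEFs, 8.99 ± 0.467 in Ezh2-deficient MEFs, 8.75 ± 0.0844 and 8.68 ± 0.0472 in both wild-type MEF summaries, 7.41 ± 0.617 in CD8+ T cells and 5.90 ± 0.678 in lymphomas (SD). MEF and T cell arrays were normalised apart, so the order between them is a description. Ezh2-deficient and wild-type MEFs, neighbours in this order, did not differ beyond their spread.

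Slc7a11, the cystine carrier of the cystine-glutamate exchanger, was near the floor on every array. It read 3.88 to 4.67 over all 23 arrays, within the lowest 25% of the values on each. Its changes were 0.08, -0.01 and -0.26 in Ezh2-deficient MEFs, Snf5 Ezh2-deficient MEFs and lymphomas. None passed (adjusted p = 0.562, 0.928 and 0.273), and values at the floor have no order.

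The ATF4 target Asns, which encodes asparagine synthetase, was higher on every lymphoma array than on any CD8+ array, yet its difference missed the threshold. The lymphomas read 12.35, 12.43, 12.97, 12.58 and 12.60. CD8+ T cells read 11.54, 11.38, 7.73, 10.11, 11.26 and 11.82. Arrays 3 and 4, the lowest, are those with the low proliferation means of 9.09 and 9.27, and array 3 alone lies more than 2 log2 units below the others.

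The change in Asns was 1.94 (SE 0.638, 95% interval 0.54 to 3.35, adjusted p = 0.0628), and the SD was 0.236 in the lymphomas and 1.54 in CD8+ T cells. It passed without CD8+ array 3 (1.36, adjusted p = 0.0156), without array 6 (2.18, 0.0448), with weights per array (2.37, 0.0144), without arrays 1 and 6 (2.47, 0.0251) and without arrays 3 and 4 (1.08, 0.00656). Its 20 alternative settings gave adjusted p-values from 0.00656 to 0.129. The other Asns probe set gave 1.73 (adjusted p = 0.120). The part of proliferation in the Asns values was not tested.

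**Figure D4:**
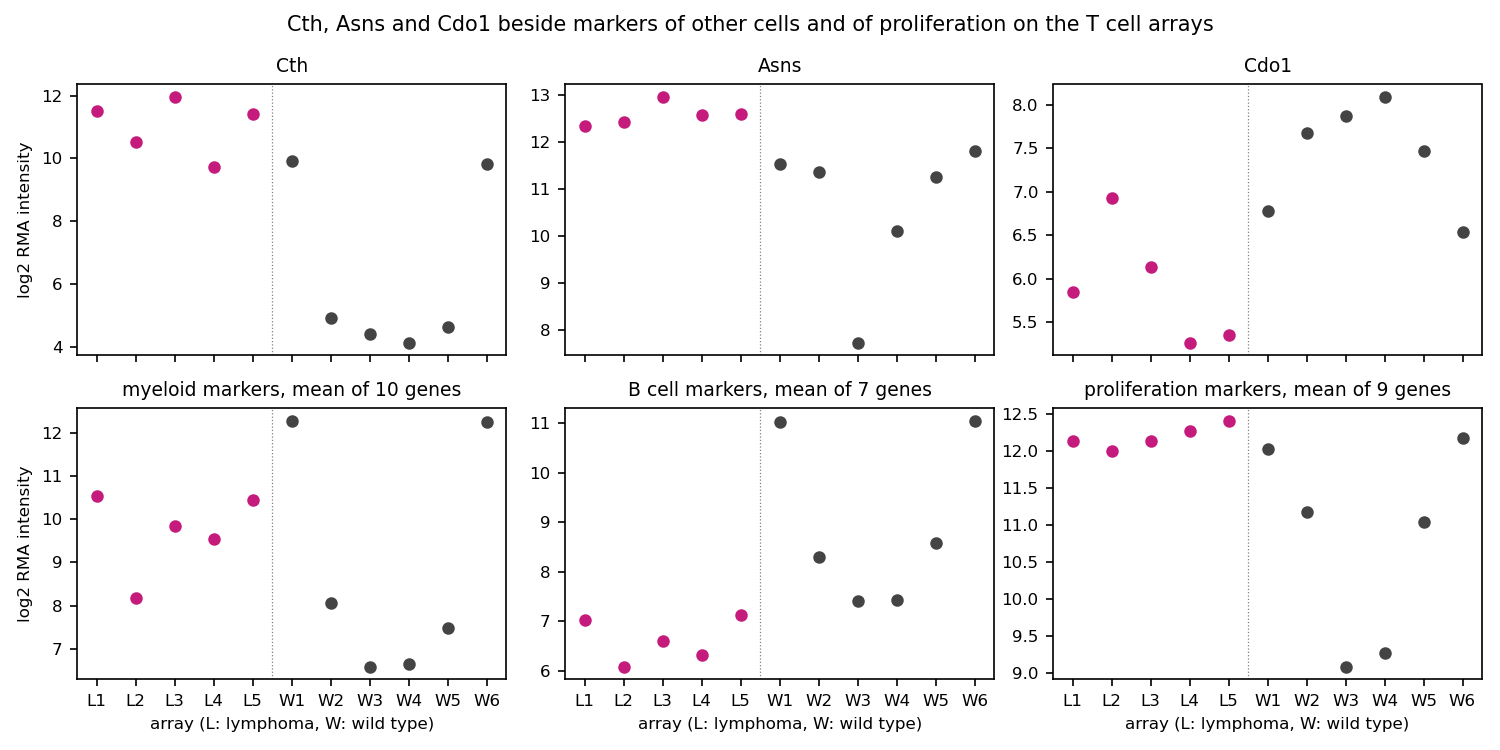
Log2 RMA intensity of Cth, Asns and Cdo1 (top) and mean log2 intensity of 10 myeloid, 7 B cell and 9 proliferation markers (bottom) on each lymphoma array (L) and wild-type CD8+ array (W). Arrays W1 and W6 are high in Cth and in both marker means of other cells, and arrays W3 and W4, at 7.73 and 10.11, are lowest in Asns and lowest in proliferation markers.

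In fibroblasts Asns gave no difference that passed. It read 9.86, 10.24 and 9.36 in Ezh2-deficient MEFs against 9.94, 10.18 and 10.02 in wild-type MEFs. It read 10.07, 10.19 and 10.26 in Snf5 Ezh2-deficient MEFs against 9.93, 10.15 and 10.05. The groups overlapped in both comparisons, and neither change passed (-0.23 and 0.13, adjusted p = 0.453 and 0.647).

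Atf4 itself, the transcription factor of the response, gave no mRNA change that passed on its main probe set. It averaged 11.32 ± 0.143 in Ezh2-deficient MEFs and 11.49 ± 0.0753 in their controls, and 11.39 ± 0.014 in Snf5 Ezh2-deficient MEFs and 11.43 ± 0.0773 in theirs (SD, n = 3 each). The Ezh2-deficient arrays, 11.41, 11.40 and 11.16, lay below the controls at 11.42, 11.48 and 11.57 without overlap, but by small margins (-0.17, adjusted p = 0.212). For Snf5 Ezh2-deficient MEFs the change was -0.04 (95% interval -0.20 to 0.13, adjusted p = 0.791). Lymphomas ranged from 12.58 to 12.87 with a median of 12.84, within the CD8+ range of 11.75 to 13.02 with a median of 12.67 (0.26, adjusted p = 0.443). The other 2 Atf4 probe sets also did not pass in these 3 comparisons, and 1 of them passed in the difference between both MEF effects (-0.25, adjusted p = 0.0403).

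Ddit3, which encodes CHOP, a transcription factor induced by prolonged stress, fell in the lymphomas. It read 8.37, 9.02, 9.14, 8.90 and 8.80 in the lymphomas, against 9.66, 10.30, 10.99, 11.25, 10.47 and 9.77 in CD8+ T cells. Within CD8+ T cells arrays 3 and 4 were highest and arrays 1 and 6 lowest. The part of proliferation and of other cells in the Ddit3 values was not tested. No lymphoma reached the lowest CD8+ array, and the fall was 2.95-fold (-1.56, SE 0.295, adjusted p = 0.00561). It was -1.91 without CD8+ arrays 1 and 6 and -1.20 without arrays 3 and 4, and passed in both cases (adjusted p = 0.000575 and 0.0113). In fibroblasts the values were 9.64, 9.65 and 9.83 in Ezh2-deficient MEFs against 9.81, 9.86 and 9.82, and 9.41, 9.52 and 9.75 in Snf5 Ezh2-deficient MEFs against 9.70, 9.72 and 9.77. Neither difference passed (-0.13 and -0.17, adjusted p = 0.407 and 0.192). Without Snf5 Ezh2-deficient array 3 the change there was -0.27 and passed (adjusted p = 0.0318).

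Trib3 encodes a pseudokinase that ATF4 and CHOP induce. The lymphomas read 7.99, 7.59, 9.30, 7.45 and 8.28, against 6.36, 6.77, 7.67, 7.64, 7.74 and 7.26 in CD8+ T cells. Lymphoma arrays 1, 3 and 5 lay above all controls and arrays 2 and 4 overlapped them. The main probe set did not pass (0.88, SE 0.364, adjusted p = 0.129), and the other one did, narrowly (1.07, adjusted p = 0.0494). In Ezh2-deficient MEFs Trib3 read 7.34, 7.78 and 6.94 against 7.36, 7.71 and 7.46, and in Snf5 Ezh2-deficient MEFs 6.86, 7.13 and 7.11 against 7.07, 7.47 and 7.11. The groups overlapped both times, and neither difference passed (-0.16 and -0.18, adjusted p = 0.620 and 0.524).

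Within MEF groups most of the genes were lowest, or highest, on the same array. In Ezh2-deficient MEFs array 3 was the lowest of the 3 for 7 of the 10 genes (Psat1, Shmt2, Cth, Cdo1, Asns, Atf4 and Trib3), against 31.3% of all genes, and array 2 was the highest for 7, against 29.8%. In wild-type MEFs of the Ezh2 set array 1 was lowest for 9 of 10, against 36.9% of all genes, and array 2 highest for 8, against 34.3%. For Snf5 Ezh2-deficient MEFs array 1 was lowest for 6, against 28.6%, and array 3 highest for 6, against 33.0%. Each array was named because it held the most of these genes in its group, so the shares beside it are no test. Asns had an SD of 0.439 in Ezh2-deficient MEFs, 0.0946 in Snf5 Ezh2-deficient MEFs and 0.122 in wild-type MEFs of the Ezh2 set, and Cth had 0.565, 0.0697 and 0.116.

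The genes whose log2 values, centred over the arrays, lay closest to those of Asns and Cdo1 were listed for each cell type. Over the 9 MEF arrays the 5 closest to Asns were Scd2, Ltbp2, Fads2, Aldh18a1 and Lbh, with mean absolute differences of 0.0723 to 0.0781. Aldh18a1 makes the precursor of proline, and Scd2 and Fads2 desaturate fatty acids. Over the 11 T cell arrays they were Fignl1, Kif18a, Ccne2, Lig1 and Exo1 (0.348 to 0.408), all of which act in DNA replication, DNA repair or mitosis. Closest to Cdo1 were C1s1, Mest, Fndc1, Slc40a1 and Cxcl10 over the MEF arrays (0.177 to 0.318), with changes of 2.59 to 3.69 in Snf5 Ezh2-deficient MEFs. Over the T cell arrays they were Irf1, Sp3, Dusp10, Atg14 and Crebrf (0.181 to 0.288). These arrays share normalisation and group differences, so closeness describes the pattern only.

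To place the genes among their partners, 9 lists of neighbouring pathways were chosen by function. None of the lists contains any of the 10. In Ezh2-deficient MEFs 5 of 106 measured partners passed, or 4.72%, near the 3.49% of all genes. The integrated stress response had 0 of 20, the eIF2alpha kinases and factors 0 of 7, the amino acid transporters 0 of 9 and the serine and one-carbon genes 0 of 10. Farsa, a subunit of phenylalanyl-tRNA synthetase, was the only 1 of 18 aminoacyl-tRNA synthetase genes to pass, and it fell by 0.54 (adjusted p = 0.0124). The methionine cycle had 1 of 6, Mat2b, which fell by 0.28, and the cysteine breakdown and endoplasmic reticulum stress lists had 0 of 8 and 0 of 14. Among 14 glutathione and NRF2 genes Hmox1 rose by 0.72 and Gclc by 0.30, and Gsr fell by 0.43. In the same comparison 8 of 9 proliferation markers fell, with means of 8.15 to 8.41 in Ezh2-deficient MEFs against 8.72 to 9.09 in wild-type MEFs.

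The partners of the stress genes split in Snf5 Ezh2-deficient MEFs. Of 20 integrated stress response genes 3 rose and 6 fell: Sesn2, a sensor of leucine, rose by 0.72, Atf3 by 0.62 and Bbc3 by 0.62, while Nupr1 fell by 1.60. Among 7 eIF2alpha kinases and factors 3 rose, all of them kinases (Eif2ak2 by 0.53, Eif2ak3 and Eif2ak4 by 0.33 each), and Impact, an inhibitor of Eif2ak4, fell by 0.32. Of 18 aminoacyl-tRNA synthetase genes 0 rose and 6 fell, among them Nars by 0.56 and Hars by 0.40. Of 14 genes of endoplasmic reticulum stress 0 rose and 5 fell, including Xbp1 by 0.39. Of 9 amino acid transporters Slc6a9, which carries glycine, rose by 0.28 and Slc1a5, which carries glutamine, fell by 0.49. The medians of the stress response, eIF2alpha, synthetase and endoplasmic reticulum lists were -0.18, 0.12, -0.16 and -0.09, against -0.003 over all genes, of which 13.2% were higher and 14.3% lower.

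None of the genes around Cdo1 in cysteine breakdown passed with a rise in Snf5 Ezh2-deficient MEFs. There 13.2% of all genes were higher and 14.3% lower, and 8 genes are too few to tell 0 from that share. Over all pathway lists together, 40 of 106 measured partners passed in this comparison (16 higher, 24 lower), or 37.7%, against 27.5% of all genes. Of 8 genes of cysteine breakdown and taurine 0 rose and 3 fell: Sqor, which oxidises hydrogen sulfide, by 1.29, Suox, which oxidises sulfite, by 0.82 and Tst by 0.62. Csad, the next enzyme of taurine synthesis after Cdo1, is in this list and did not pass against wild-type MEFs (0.21, adjusted p = 0.133). Of 6 genes of the methionine cycle and transsulfuration Ahcy rose by 0.61 and Cbs, which makes the cystathionine that Cth cleaves, by 0.43. Of 14 glutathione and NRF2 genes 5 rose and 1 fell, with Hmox1 at 1.39, Nqo1 at 1.24 and Srxn1 at 0.74. Among 10 serine and one-carbon genes Mthfd1 rose by 0.54, Gldc by 0.48, and Gcsh fell by 0.53. In the difference between both MEF effects Csad was higher and passed (0.36, adjusted p = 0.0166). Of the 8 genes of cysteine breakdown and taurine, 1 was higher and 3 were lower there, against 16.3% and 13.6% of all genes.

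In the lymphomas the partners of Phgdh and Psat1 rose more often than they fell. Of 10 serine and one-carbon genes 6 rose and 1 fell: Tyms rose by 1.48, Shmt1, the cytosolic partner of Shmt2, by 1.10 and Srr, serine racemase, by 1.02, and Aldh1l1 fell by 1.13. Of 18 aminoacyl-tRNA synthetase genes 8 rose and 0 fell, among them Rars by 0.87 and Cars by 0.85. The list medians were 0.72 and 0.58, against -0.066 over all genes, of which 9.13% were higher and 7.71% lower. The counts were 4 higher and 1 lower and 9 higher and 0 lower without CD8+ arrays 1 and 6, where 13.2% of all genes were higher and 13.2% lower. Without arrays 3 and 4 they were 4 and 1, and 4 and 0, against 7.93% and 7.0% of all genes. Proliferation markers had a median change of 1.41 in the lymphomas, 2 of 9 rose, and 7 rose without CD8+ arrays 1 and 6 (median 2.13) and 1 without arrays 3 and 4 (median 0.59). Their part in these counts was not tested.

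Of all genes 16.8% passed in the lymphomas (9.13% higher, 7.71% lower). The counts of stress genes around Ddit3 varied with the CD8+ arrays included. Of 20 integrated stress response genes 3 rose and 1 fell: Jdp2 rose by 3.13, Atf3 by 2.15 and Sesn2 by 2.07, and Gadd45a, a growth arrest gene, fell by 2.32. Without CD8+ arrays 1 and 6 the counts were 8 and 3, where 13.2% of all genes were higher and 13.2% lower. Without arrays 3 and 4 they were 3 and 2, against 7.93% and 7.0% of all genes. Of 14 genes of endoplasmic reticulum stress 0 rose and 3 fell: Edem1 fell by 1.63, Dnajb9 fell by 1.38 and Herpud1 fell by 1.25. Without CD8+ arrays 1 and 6, 2 of the 14 rose and 3 fell, and without arrays 3 and 4 the counts were 0 and 3. Of 14 glutathione and NRF2 genes 3 rose and 2 fell, with Srxn1 at 3.93 and Nfe2l2, which encodes NRF2 itself, at -2.69. These counts were 4 and 2 without CD8+ arrays 1 and 6, and 2 and 3 without arrays 3 and 4. Slc38a1, an importer of small neutral amino acids, was the only 1 of 9 transporters to pass, with a rise of 1.28. The 8 genes of cysteine breakdown and the 6 of the methionine cycle held 0 that passed. Without CD8+ arrays 1 and 6, 1 gene of the methionine cycle was lower. Without arrays 3 and 4, 1 gene of cysteine breakdown was higher and 1 lower. Among 7 eIF2alpha kinases and factors Eif2ak4 rose by 0.81, and Nck1 fell by 1.12. In that list 1 gene rose and 0 fell without arrays 3 and 4.

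**Figure D5:**
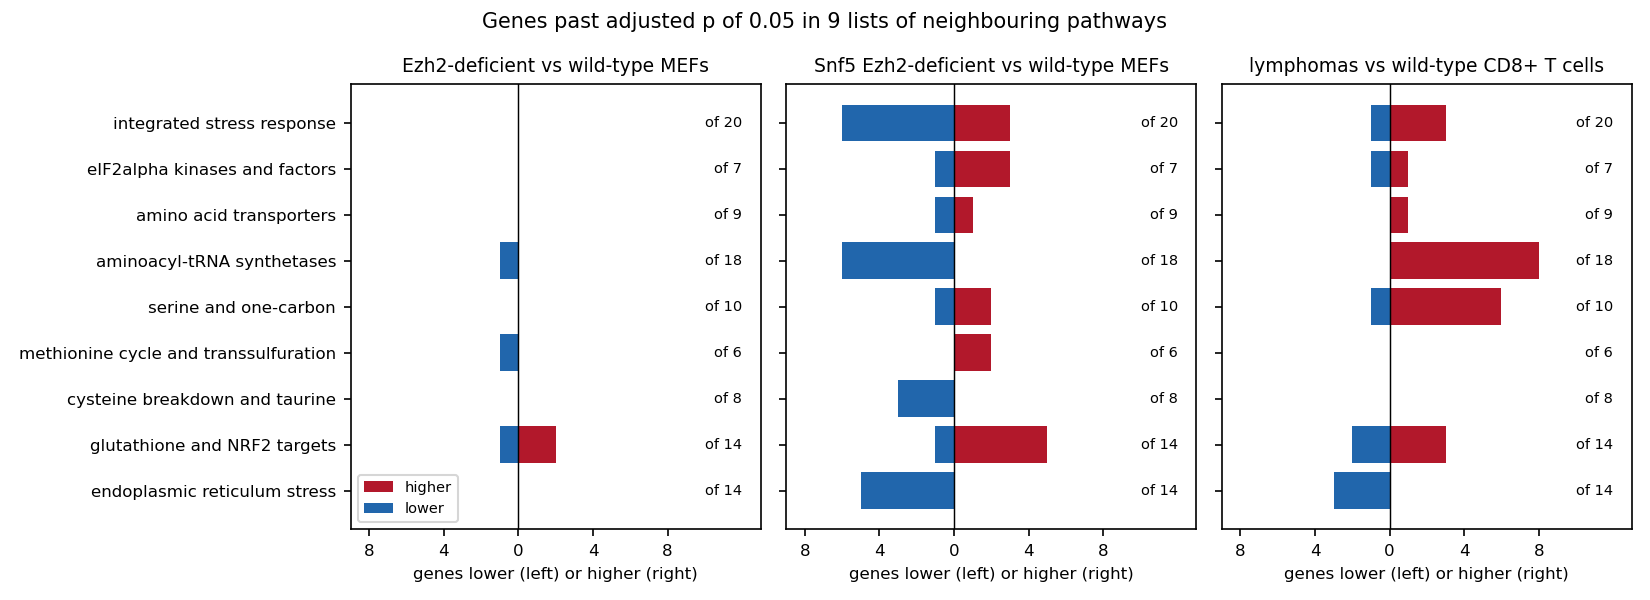
Number of genes past an adjusted p of 0.05 (x axis; higher to the right, lower to the left) in each of 9 pathway lists, with the number measured at the right edge, for Ezh2-deficient against wild-type MEFs, Snf5 Ezh2-deficient against wild-type MEFs and lymphomas against wild-type CD8+ T cells. The aminoacyl-tRNA synthetases show 0 higher and 6 lower of 18 in Snf5 Ezh2-deficient MEFs and 8 higher and 0 lower in the lymphomas.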

How the data were processed

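RNA was hybridised to Affymetrix arrays (platform 430A 2.0 for mouse) and preprocessed by the authors with Robust Multichip Average (RMA), per the labels' protocols and the submitters' processing notes. The deposited values are RMA intensity on a linear scale, 22690 probe sets per array, and log2 was taken here. Median log2 lay between 7.26 and 7.32 on MEF arrays and between 8.04 and 8.37 on T cell arrays. No RMA version is stated in the sources used here.

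After leaving out 64 control probe sets, 22626 were tested with limma 3.58.1 under R 4.3.3 (functions lmFit and eBayes); p-values were adjusted by Benjamini and Hochberg's method over all of these, at a threshold of 0.05. Gene names came from the platform annotation, in which 20380 probe sets named 1 gene, 691 several and 1555 none. The repeated wild-type MEF arrays differed by an SD of 0.0219 to 0.0241 for equal numbers and 0.137 to 0.152 for different ones, after removal of an offset per probe set, over 5639 probe sets with a mean log2 above 9. They were averaged and counted once, which left 6 residual degrees of freedom. The 11 T cell arrays were fitted apart, with 9. The median SE was 0.0771 and 0.236. The number of arrays limits the precision.

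Groups came from the sample titles. The genes and the lists (199 symbols, 174 measured, 4 through a newer symbol) were chosen with earlier results of these data known. All 10 genes are named; of each pathway list, up to 4 passing genes with the largest change, or the one with the smallest p, could be named, and marker genes were named after their values were seen. Alternatives covered normalisation, a filter on dim probe sets, an intensity trend, the mean over probe sets, array weights, the 6 arrays of one set, each array left out and the replicate number as a block. The steps were tested on simulated data.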

Additional observations from a re-analysis of the deposited data

Results flagged for a closer look

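Atf4 on lymphoma array 4, at log2 12.58, lay apart from the other 4 lymphomas, which read 12.82 to 12.87. It was the single array singled out by Dixon's criterion among 20 groups of T cell arrays examined, and chance marks about 1 in 20 such groups. The effect on Phgdh differed between the 2 mutant MEF groups, by -0.81 (Snf5 Ezh2-deficient minus Ezh2-deficient, adjusted p = 0.000259). Its other probe sets gave -0.84, -0.53 and -0.58 (adjusted p = 0.628, 0.00214 and 0.00195). With the mean over its 4 probe sets the difference was -0.69 and did not pass (adjusted p = 0.116). The effect on Cdo1 differed by 2.87 (adjusted p = 6.19e-06), in a contrast where 9 of 9 proliferation markers were higher. Both groups share their 3 wild-type hybridisations, which enter this difference through the offset between their 2 summaries and through the shared estimate of the spread.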

How the results depend on the processing

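The 10 genes were refitted under 61 alternative settings over the 4 comparisons. Of the single-gene results 572 kept direction and side of the threshold, 10 passed newly, 7 no longer passed and 17 changed sign; the cause was not tested. With the mean over probe sets 1 gene, Cdo1, passed in Snf5 Ezh2-deficient against wild-type MEFs, and Phgdh changed sign there to 0.12 (adjusted p = 0.817). Cdo1 was also the 1 gene that passed in the difference between both MEF effects, where Phgdh was -0.69 (adjusted p = 0.116). Under this setting Atf4 changed sign in Ezh2-deficient MEFs, to 0.02, and in the difference, to -0.04. Leaving out 1 array each gave 0 to 1 passing genes in Ezh2-deficient MEFs, 2 to 3 in Snf5 Ezh2-deficient MEFs, 3 to 6 in the lymphomas and 2 to 4 in the difference. In that difference Psat1 (0.53) and Asns (0.57) passed without Ezh2-deficient array 2. The other sign changes were of values that did not pass: in Ezh2-deficient MEFs Cth became -0.03 without mutant array 1 and ran from -0.19 (array 2) to 0.36 (array 3) over the arrays left out, Asns ran from -0.44 to 0.0017 and Trib3 from -0.37 to 0.04, the upper ends without mutant array 3. In Snf5 Ezh2-deficient MEFs Slc7a11 ran from -0.08 to 0.03 (0.01 without array 3), and Atf4 from -0.07 to 0.0025, with 0.01 under quantile normalisation. In the difference Trib3 ran from -0.23 to 0.19, with 3.2e-05 when wild-type array 2 and 0.06 when Snf5 Ezh2-deficient array 1 was left out. Ddit3 there ran from -0.14 to 0.03 (0.01 without Ezh2-deficient array 3), and Cth from -0.23 to 0.32. Over all genes the number passing ran from 87 to 526 in Ezh2-deficient MEFs (432 as reported), 2690 to 3567 in Snf5 Ezh2-deficient MEFs (3410), 1408 to 3273 in the lymphomas (2088) and 2842 to 3875 in the difference (3704).

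Replicate numbers were not used to pair the arrays in the main fit. The correlation of deviations between arrays of one number was not above 0.1 for every pair (Ezh2-deficient with wild type 0.197, 0.221 and 0.00917, lymphoma with CD8+ 0.0885 to 0.394). Arrays of different numbers were not set beside these, so the check cannot decide whether the numbers mark pairs. With the number as a replicate block 0, 2, 5 and 2 of the 10 genes passed, the same counts as without it. The order is Ezh2-deficient MEFs, Snf5 Ezh2-deficient MEFs, lymphomas and the difference. The lymphoma fit with the block left out CD8+ array 6, which has no lymphoma of its number, so its count rests on fewer arrays. Over all genes 213 passed in Ezh2-deficient MEFs under the block. Slc7a11 near the floor, and Cth on 4 CD8+ arrays, limit what intensity can show.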
